A study of Zea mays with 28 samples.

Results

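The regions described here are places in the maize genome where the chromatin remodeller ZmDDM1B and the Argonaute protein ZmAGO4 were both called by chromatin immunoprecipitation (ChIP-seq) and the second remodeller, ZmDDM1A, was not. They were chosen from the deposited peak lists of 6 wild-type (WT) libraries, 2 for each protein. Peaks that shared at least 1 bp were merged into 122155 regions, and a region was kept when it held a peak of both ZmDDM1B lists and of both ZmAGO4 lists and a peak of neither ZmDDM1A list. This left 2720 regions, 2.23% of all merged regions, covering 4.33 Mb. The number depends on each library: the same rule without ZmDDM1A replicate 1 or 2 gave 4393 or 4280 regions, and without ZmDDM1B replicate 1 or 2 it gave 4291 or 5090. They were 9.04% of the 30073 regions with both ZmDDM1B and both ZmAGO4 lists (exact 95% Clopper-Pearson interval 8.72 to 9.37). They were 7.14% (6.89 to 7.41) of the 38070 regions with both ZmDDM1B lists and 3.05% of the 89175 with both ZmAGO4 lists. Such intervals reflect counting error alone, and regions close to each other on a chromosome are not independent.

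All libraries came from developing embryos of the maize inbred W22, collected 18 days after pollination. The 3 WT groups were precipitated with antibodies against ZmDDM1A, ZmDDM1B or ZmAGO4 that the submitting laboratory had produced. In another pair of groups the ZmDDM1A antibody was used on zmddm1a embryos and the ZmDDM1B antibody on zmddm1b embryos, again with 2 libraries each. The labels give no allele of either mutant and do not say whether the replicates came from separate plants, so the spread between replicates may be technical.

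DDM1 is a SNF2-type remodeller. In Arabidopsis it is needed for DNA methylation of nucleosome-bound heterochromatin, and maize carries a pair of homologues, ZmDDM1A and ZmDDM1B. AGO4 acts in RNA-directed DNA methylation, where it binds small interfering RNAs and, through them, targets the methylation machinery to matching sequence. In maize this pathway is known for its activity at transposon edges near genes. The series title places DDM1 together with this pathway on active chromatin. The chosen regions are places where ZmDDM1B and ZmAGO4 were called without a listed ZmDDM1A peak. A missing peak does not show that ZmDDM1A took no part there.

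The absence of a ZmDDM1A peak has to be read against the lowest peaks that the lists hold, since the ZmDDM1A signal of the chosen regions themselves was not measured here. The fold enrichment and the p-value that the authors deposited for each summit fix the number of fragments piled up there and the local background, both in reads. At the background typical of the ZmDDM1A lists, 10.3 and 10.4 reads in replicates 1 and 2, the weakest listed peak had a pileup of 23 reads in each list. The lowest fold among these peaks was 2.18 in replicate 1 and 2.19 in replicate 2, and it need not belong to the peak with the lowest pileup. Peaks within 10% of each stated background were taken. At the lower background of the neighbouring regions described next, 8.45 and 8.34 reads, the weakest listed peak had 20 reads in each list. A region without a listed peak may therefore still hold a ZmDDM1A summit below that height. The 3238 regions with ZmDDM1B, ZmAGO4 and exactly 1 of the ZmDDM1A lists lie next to the chosen ones by the rule. Where only replicate 1 of ZmDDM1A called them (1671 regions) its median pileup was 30 reads, and where only replicate 2 did (1567 regions) it was 30 reads too. Across the 24115 regions called in all 6 WT lists the ZmDDM1A medians were 51 and 52 reads.

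Regions at the edge of the rule were picked by a low −log10 q, so values near the limit of the lists follow from that choice. Chosen regions were picked by their weakest ZmDDM1B or ZmAGO4 peak, and those outside by their ZmDDM1A peak. The 3 chosen regions with the weakest supporting peak had a lowest −log10 q of 2.04, 2.07 and 2.07, where about 2 is the limit of the lists. The first was chr3:159020930-159022551, with ZmDDM1B folds of 4.28 and 1.93. The others were chr1:174569234-174570059 and chr1:111164465-111165595. All positions are on B73 RefGen_v4. Just outside the rule were 3 regions with 1 weak ZmDDM1A peak. In chr8:137062323-137065975 a ZmDDM1A peak of replicate 2 had a fold of 1.94 and a −log10 q of 2.00. In chr3:155998234-155999172 and chr3:190364194-190365358 peaks of ZmDDM1A replicate 1 had folds of 2.37 and 1.99 and a −log10 q of 2.02 each. Their ZmDDM1B folds, 1.81 to 4.92, lay in the range of the chosen regions.

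ZmDDM1B was weak and ZmAGO4 strong in the chosen regions. The fold enrichment is the authors' ratio of the immunoprecipitate to its local background at the summit, and the strongest peak of each library stands for the region. The median ZmDDM1B fold was 3.67 in replicate 1 and 3.69 in replicate 2, with quartiles of 3.07 and 4.51 in replicate 1 and 3.10 and 4.44 in replicate 2. In the regions of all 6 lists it was 5.48 and 5.35. The log2 difference of these medians was −0.56 ± 0.031 (SD, n = 2 libraries). In regions called for ZmDDM1B and for neither other protein (2565 regions) the medians were 3.63 and 3.66, close to those of the chosen regions.

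The ZmAGO4 fold was close to that of the regions of all 6 lists. Its median fold was 9.31 and 9.43 in the chosen regions and 9.27 and 9.52 in the regions of all 6 lists, a log2 difference of −0.0039 ± 0.014 (SD, n = 2), smaller than the spread between the libraries. In the 47472 regions called for ZmAGO4 alone it was 5.64 and 5.71. The pileup of the summits and their local background were both lower than in the regions of all 6 lists, for both proteins. In the chosen regions the median ZmDDM1B summit held 32 and 29 reads over backgrounds of 7.81 and 7.40 reads. In the regions of all 6 lists it held 61 and 54 reads over 10.4 and 9.25. The median ZmAGO4 summit held 180.0 and 166 reads over 18.0 and 16.2 in the chosen regions. In the regions of all 6 lists it held 192 and 181 reads over 22.3 and 19.9. The highest ZmAGO4 summits have no recovered pileup, so these medians cover 2653 and 2681 of the 2720 chosen regions and 22386 and 22715 of the 24115. The rule used peak calls of these same libraries, so the differences are given as a description, without a test.

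**Figure D1:**
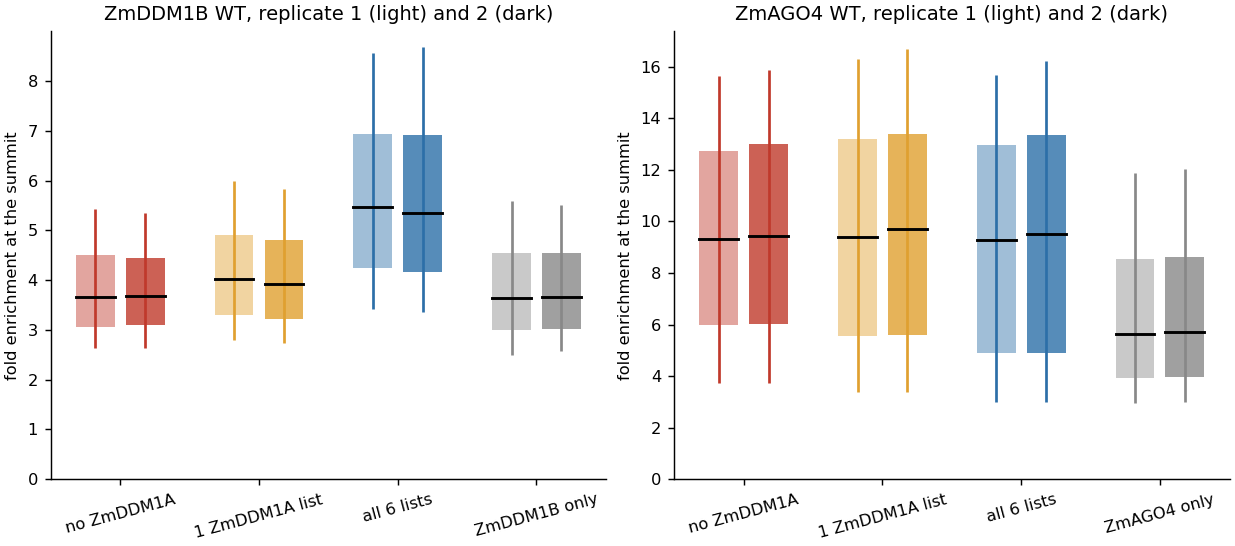
Fold enrichment at the summit (linear axis, no unit) for the ZmDDM1B (left) and ZmAGO4 (right) WT libraries, in regions with ZmDDM1B and ZmAGO4 and no ZmDDM1A, with 1 ZmDDM1A list, with all 6 lists, and with the plotted protein alone. Boxes span the quartiles, black lines are medians and whiskers run from the 10th to the 90th percentile over regions; the ZmDDM1B medians without ZmDDM1A (3.67 and 3.69) sit with those of ZmDDM1B alone, and the ZmAGO4 medians (9.31 and 9.43) sit with those of all 6 lists.

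The ZmAGO4 comparison depended on the width of the regions. The chosen regions had a median width of 1396 bp (quartiles 958.5 and 2012.5, range 274 to 7705), against 1613 bp in the regions of all 6 lists. Among regions of 500 to 1500 bp the ZmAGO4 medians were 7.58 and 7.78 in 1344 chosen regions and 5.46 and 5.44 in 9958 regions of all 6 lists, a log2 difference of 0.49. Above 1500 and up to 3000 bp they were 11.3 and 11.5 against 10.97 and 11.2, and above 3000 bp 12.8 and 13.3 against 13.2 and 13.7. Below 500 bp, where there were 173 chosen regions, they were 3.96 and 4.09 against 3.81 and 3.76. The ZmDDM1B medians were lower in the chosen regions in each of these width classes and both replicates. The smallest such gap was below 500 bp, 4.53 and 4.34 against 5.64 and 5.58.

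A region was more often without ZmDDM1A the weaker its ZmDDM1B signal was. The 30073 regions with both ZmDDM1B and both ZmAGO4 lists were ranked by the smaller of their ZmDDM1B folds and divided into 10 groups of equal size. In the weakest group, with folds up to 2.84, 25.7% (95% interval 24.1 to 27.3) held no ZmDDM1A peak. The share fell from group to group, to 10.3% in group 4, 3.32% in group 7 and 0.399% (0.206 to 0.696) in the strongest, with folds of 6.92 and above. Ordered by ZmAGO4 instead, the share was lowest in the weakest group, 4.52%, reached 11.9% in group 5 and was 8.78% in the strongest. Only 12 chosen regions (0.441%) had a ZmDDM1B fold of at least 7 in both replicates, against 2784 (11.5%) of the regions of all 6 lists.

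**Figure D2:**
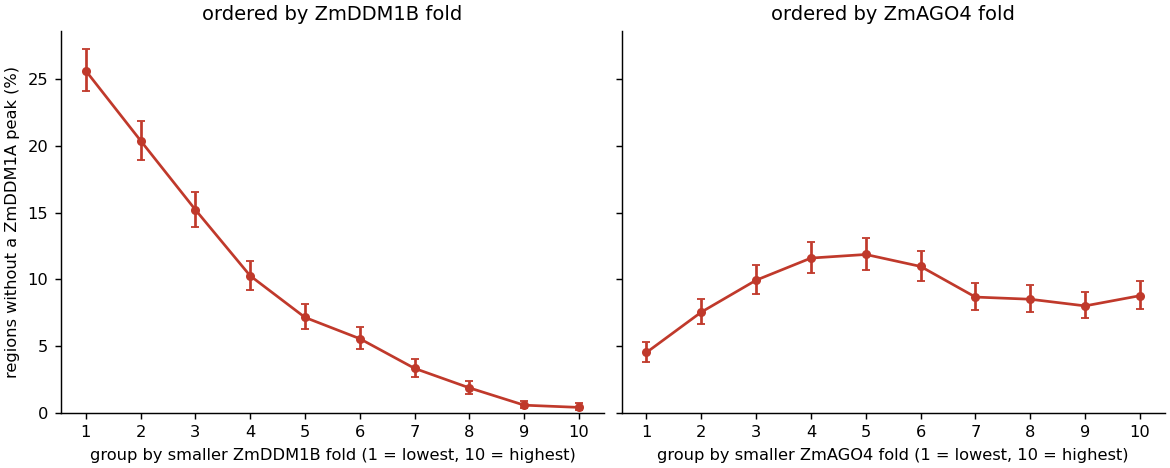
Share of the regions with both ZmDDM1B and both ZmAGO4 lists that held no ZmDDM1A peak (percent, bars are exact 95% intervals), in 10 equal groups ordered by the smaller ZmDDM1B fold (left) or the smaller ZmAGO4 fold (right). The share falls from 25.7% to 0.399% along the ZmDDM1B order and stays between 4.52% and 11.9% along the ZmAGO4 order.

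The replicates ranked the chosen regions more alike for ZmAGO4 than for ZmDDM1B. Across the 2720 regions the Spearman correlation between replicates was 0.89 for the ZmAGO4 fold and 0.26 for the ZmDDM1B fold. In the regions of all 6 lists, which span a wider range of folds, the ZmDDM1B value was 0.50. The folds of the replicates lay within 1.5 times of each other in 89.9% of the chosen regions for ZmAGO4 and in 77.4% for ZmDDM1B, against 90.04% and 74.0% in the regions of all 6 lists. Between the proteins the correlation within a replicate was 0.014 in replicate 1 and −0.010 in replicate 2. These are correlations across regions, which share their libraries and their genome neighbourhood, and regions are not independent replicates. The ZmAGO4 fold rose with region width (0.57) and the ZmDDM1B fold did not (−0.11).

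The strongest regions show how the folds of the proteins varied against each other. Each fold is relative to the background of its own library and antibody, so the higher fold does not say which protein was more abundant. The region whose smallest fold was highest over its 4 libraries was taken on each chromosome. The highest of these was chr4:167788082-167789588. It had ZmDDM1B folds of 9.51 and 12.1 and ZmAGO4 folds of 11.6 and 12.8, so ZmAGO4 was slightly the higher in both replicates, and the nearest ZmDDM1A peak was 23482 bp away. In chr1:70716165-70716565 the ZmDDM1B folds were 12.6 and 8.24 and the ZmAGO4 folds 7.22 and 8.76, and the replicates of the proteins overlapped. In chr6:81826616-81827994 the folds were 7.10 and 7.19 for ZmDDM1B and 8.08 and 7.67 for ZmAGO4. Here, too, ZmAGO4 was higher by a small margin in both replicates.

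In most of the other leading regions ZmAGO4 stood above ZmDDM1B in both replicates, by differing margins. In chr2:46364885-46365601 the folds were 5.80 and 5.74 for ZmDDM1B and 13.99 and 16.3 for ZmAGO4. In chr3:32588330-32590257 they were 6.71 and 7.25 against 17.0 and 17.4. In chr5:92890742-92891513 they were 11.4 and 7.51 against 17.5 and 16.9, more than a factor of 2 apart in replicate 2 only. In chr9:81301149-81302187 they were 10.3 and 7.68 against 15.7 and 14.3. There, and in chr7:94423646-94424934 and chr10:56837749-56839510, ZmAGO4 was higher in both replicates by less than a factor of 2. Among these 10 leading regions, ZmDDM1B was higher than ZmAGO4 in both replicates at 1, chr8:24802629-24802947, with folds of 8.22 and 6.04 against 6.77 and 5.80. That region was 319 bp wide, the narrowest of the 10.

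**Figure D3:**
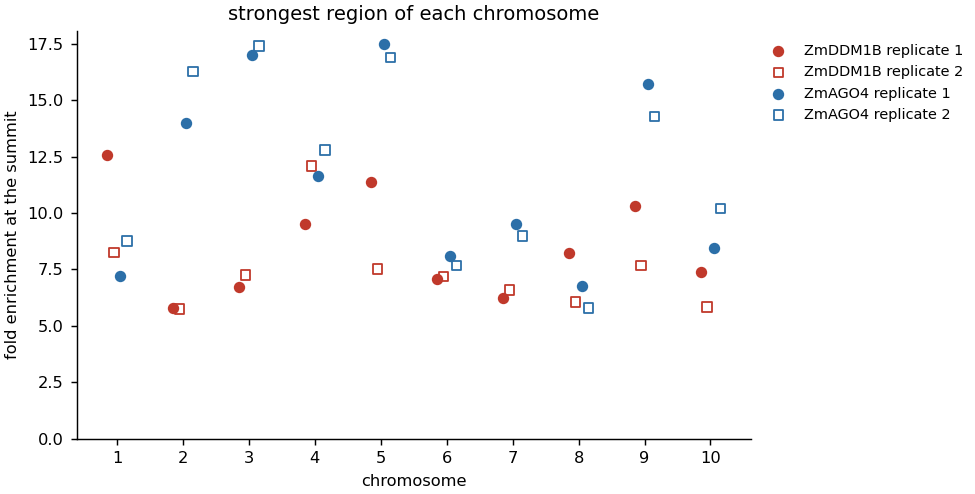
Fold enrichment at the summit (linear axis, no unit) in each of the 4 libraries for the strongest region of each chromosome, with circles for replicate 1 and open squares for replicate 2. ZmAGO4 (blue) lies above ZmDDM1B (red) in both replicates on chromosomes 2, 3, 4, 5, 6, 7, 9 and 10 and below it in both on chromosome 8, where its folds were 6.77 and 5.80; on chromosome 1 the order differs between replicates.

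The extremes for each protein were different places. By the smaller ZmDDM1B fold the first region was chr4:151384146-151384514, with ZmDDM1B folds of 10.7 and 9.54 and ZmAGO4 folds of 6.01 and 4.41. The leading regions of chromosomes 4 and 1 came next. They were followed by chr8:25352589-25353570, with ZmDDM1B folds of 10.3 and 8.06, and chr10:134549192-134549628, with 8.99 and 8.00. In 3 of these 5 ZmDDM1B stood above ZmAGO4 in both replicates. By the smaller ZmAGO4 fold the first region was chr8:113867294-113869334, with ZmAGO4 folds of 28.7 and 29.0 and ZmDDM1B folds of 6.07 and 5.64. It was followed by chr6:151992171-151993160, chr7:161514789-161517181, chr7:130692637-130693626 and chr8:167555895-167557262. Their ZmAGO4 folds ran from 22.5 to 26.2 and their ZmDDM1B folds from 3.46 to 5.57.

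Over all chosen regions ZmAGO4 had the higher fold in both replicates in 2259 (83.1%), ZmDDM1B in 202 (7.43%), and the order differed between replicates in 259. Counted per replicate, ZmAGO4 was higher in 87.8% of the chosen regions in each, in 83.2% and 83.9% of the regions with 1 ZmDDM1A list, and in 70.7% and 71.2% of the regions of all 6 lists. The 202 regions in which ZmDDM1B was higher were narrow, with a median width of 603.5 bp against 1539 bp where ZmAGO4 was higher. Their median ZmDDM1B folds were 4.45 and 4.28 and their median ZmAGO4 folds 3.19 and 3.18. They also lay nearer the chromosome ends: 64.4% (57.3 to 71.0) were in the first or last 20% of a chromosome, against 45.6% (43.5 to 47.7) where ZmAGO4 was higher. These groups were set after their values were seen and are given without a test.

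The ZmDDM1B summit usually lay inside the wider ZmAGO4 peak. The strongest ZmDDM1B peak of a chosen region had a median width of 322 and 325 bp, and the strongest ZmAGO4 peak 1219 and 1187 bp. The ZmDDM1B summit fell within a ZmAGO4 peak of the same replicate number in 86.0% and 82.8% of the regions, and the whole ZmDDM1B peak did in 57.5% and 54.8%. In the regions of all 6 lists the summit was inside more often, in 94.2% and 92.5%, and the whole peak less often, in 50.4% and 46.5%. The strongest ZmDDM1B peak touched a ZmAGO4 peak of its own replicate number in 97.0% and 95.3% of the chosen regions, and elsewhere the proteins were joined through other peaks. The nearest summits of the proteins were separated by a median of 254.5 bp (replicate 1) and 250.5 bp (replicate 2), a mean of 252.5 ± 2.83 bp (SD, n = 2), against 256 and 258 bp in the regions of all 6 lists. They lay within 200 bp of each other in 42.4% and 43.5% of the chosen regions, against 40.7% of the regions of all 6 lists in each replicate.

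Most chosen regions were compact. A single ZmDDM1B peak was called in 95.4% of them in replicate 1 and in 95.6% in replicate 2, against 79.0% and 80.004% of the regions of all 6 lists. A single ZmAGO4 peak was called in 95.5% and 95.4%. Where the region held 1 ZmAGO4 peak and the ZmDDM1B summit lay inside it, 38.6% and 37.7% of the summits fell in the outer 40% of the peak and 23.4% and 23.7% in its middle 20%, so the summits were spread along the ZmAGO4 peak. The widest chosen region, 7705 bp, was chr4:6174481-6182185, with ZmAGO4 folds of 15.1 and 14.4 and ZmDDM1B folds of 2.95 and 3.84. Next came chr9:15104470-15111067 and chr8:137940324-137946441, with widths of 6598 and 6118 bp.

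The distance from the chosen regions to ZmDDM1A varied widely, and the rule itself excludes an overlapping ZmDDM1A peak. The nearest WT ZmDDM1A peak was a median of 8868 bp away, with quartiles of 2241 and 31160 bp. It lay within 1 kb of 424 regions (15.6%) and within 10 kb of 1416 (52.1%), and farther than 100 kb from 144 (5.29%). Regions called for ZmAGO4 alone had a median distance of 7843 bp, with 14.5% within 1 kb and 54.4% within 10 kb. The chosen regions thus stood about as far from ZmDDM1A as those did. The ZmDDM1B fold hardly changed with this distance. Its medians were 3.65 and 3.65 within 1 kb of a ZmDDM1A peak and 3.69 and 3.71 beyond 100 kb. The ZmAGO4 medians were 8.58 and 8.80 within 1 kb, 9.69 and 9.83 from 10 to 100 kb and 9.01 and 9.15 beyond. The position changed more, though not steadily. The share in the first or last 20% of a chromosome was 51.2% within 1 kb of ZmDDM1A and 55.3% from 1 to 10 kb. It was 44.1% from 10 to 100 kb and 14.6% for the 144 regions beyond. No other class was divided by this distance.

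Single regions lay at either limit of this distance. The farthest was chr7:93686579-93687114, 613787 bp from any ZmDDM1A peak, with ZmDDM1B folds of 5.79 and 3.22 and ZmAGO4 folds of 4.92 and 7.31. Then followed chr2:83293584-83294107 and chr2:120063606-120064933, 497367 and 497283 bp away. The nearest were chr5:200157474-200158349, 1 bp from a ZmDDM1A peak, chr1:298850661-298852233, at 15 bp, and chr5:10461930-10462467, at 19 bp. For these 3 the absence of ZmDDM1A rests on where the edges of peaks were set.

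The chosen regions reached farther into the chromosome interior than the regions of all 6 lists. Of the 2720 regions 1298 lay in the outer 40% of a chromosome, its first or last 20%. That was 47.7% (95% interval 45.8 to 49.6), against 55.5% (54.8 to 56.1) of the regions of all 6 lists. The middle 20% held 15.04% (13.7 to 16.4) against 11.6% (11.2 to 12.0). An interior position was not particular to the chosen regions. The outer share was 50.4% in regions with 1 ZmDDM1A list and 50.2% in those of ZmAGO4 alone. Their middle shares were 14.3% and 14.5%. Regions of ZmDDM1B alone went the other way, with 57.8% outer and 10.7% middle. Position was not used to choose the regions. The outer share was lower in the chosen regions than in the regions of all 6 lists on all 10 chromosomes. The difference ran from −1.76 percentage points on chromosome 4 (43.5% against 45.3%) to −16.4 on chromosome 6 (35.98% against 52.4%). No p-value is given, since regions and chromosomes are not samples.

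Read the other way, the share of regions with ZmDDM1B and ZmAGO4 that lacked ZmDDM1A was lowest at the chromosome ends. It was 7.03% (6.26 to 7.86) in the first 10% of the chromosomes and 7.19% (6.50 to 7.94) in the last 10%. It was highest in sections 4 and 5 of the 10, at 13.0% (11.4 to 14.8) and 12.7% (11.1 to 14.4). Single chromosomes ran from 6.15% to 25.7% in section 4, so the rise was uneven. Position also varied with ZmDDM1B strength: in the regions of all 6 lists the outer share was 52.9% below a fold of 2.5 and 59.2% at 7 and above. Among regions whose smaller ZmDDM1B fold was from 3 to 4 the outer share differed from that of the regions of all 6 lists by −4.50 percentage points, in place of −7.75. The outer share was lower in the chosen regions in each of 7 ranges of ZmDDM1B fold, with differences from −3.43 to −25.9 points, the last in the range with 12 chosen regions.

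**Figure D4:**
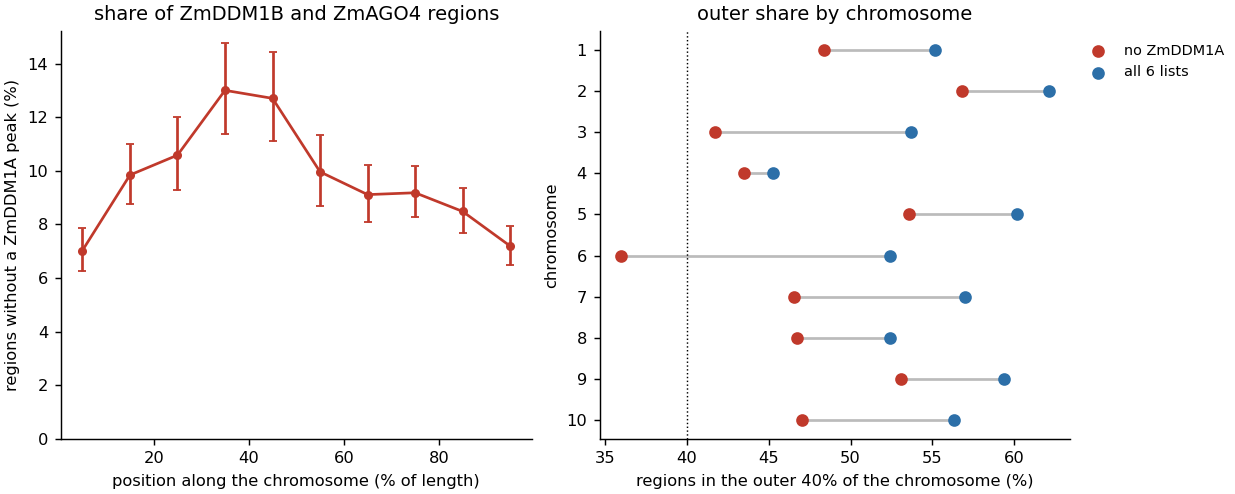
Left, share of regions with ZmDDM1B and ZmAGO4 that held no ZmDDM1A peak (percent, exact 95% intervals) in 10 sections along the chromosomes, pooled over chromosomes. Right, percent of regions in the outer 40% of each chromosome, without ZmDDM1A (red) and in all 6 lists (blue); the dotted line marks 40%, and on all 10 chromosomes the red point lies to the left of the blue one.

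All chromosomes held chosen regions, from 403 on chromosome 1 to 185 on chromosome 10, and the density ran from 1.099 per Mb on chromosome 3 to 1.52 per Mb on chromosome 8. Their share among the regions with ZmDDM1B and ZmAGO4 ran from 7.86% (6.96 to 8.83) on chromosome 3 to 10.02% (8.93 to 11.2) on chromosome 8. These are the lowest and highest of 10 chromosomes, and their intervals reflect counting error alone. The regions were scattered: the nearest other chosen region was a median of 224880 bp away, and 1448 of 2111 windows of 1 Mb held at least 1. The densest window, on chromosome 6 from 166000001 to 167000000, held 9, among 54 regions with ZmDDM1B and ZmAGO4, of which 40 were in all 6 lists.

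The zmddm1b libraries show at how many of these places the ZmDDM1B antibody still gave a listed peak in mutant embryos, and they were not used to choose the regions. Of the 2720 regions 18 (0.662%, 95% interval 0.393 to 1.04) met a peak of zmddm1b replicate 1, where 1.15% of all merged regions did. In zmddm1b replicate 2 it was 5 (0.184%, 0.0597 to 0.428), where 0.307% of all merged regions did. Either list met 21 of the chosen regions (0.772%, 0.479 to 1.18), and the background over all merged regions was 1.29%. Either list met 3.64% (3.41 to 3.89) of the regions of all 6 lists and 7.68% (6.68 to 8.78) of those called for ZmDDM1B alone. Other classes were met less often than the chosen regions. The share was 0.309% (0.148 to 0.567) with 1 ZmDDM1A list and 0.0253% for ZmAGO4 alone, a class that also counts in the background. The share met varied with the ZmDDM1B fold, taken as the smaller of the replicates. Below 2.5 it was 0.872% of the chosen regions and 0.653% of the regions of all 6 lists, and from 3 to 3.5 it was 0.564% and 0.428%. From 2.5 to 3 and from 3.5 to 4 the chosen regions were the lower, with 0.150% against 0.251% and 0.219% against 0.620%. They were also lower from 4 to 5, with 1.22% against 1.56%, and from 5 to 7, with 3.33% against 5.02%. At 7 and above the chosen regions were the higher, with 3 of 12 met (25%) against 373 of 2784 (13.4%) in the regions of all 6 lists. The order of the classes thus changed between ranges, and each range up to 7 held 1 to 5 of the chosen regions that were met.

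The zmddm1a libraries, made with the ZmDDM1A antibody, met none of the chosen regions in either replicate. The background over all merged regions was 0.658% in replicate 1, 0.688% in replicate 2 and 1.06% in either. So low a count was not particular to the chosen regions. Either list met 1 of 3238 regions with 1 ZmDDM1A list, 1 of 2565 of ZmDDM1B alone and 2 of 47472 of ZmAGO4 alone. Of the regions of all 6 lists it met 3.57%. A count of 0 of 2720 allows a share of up to 0.110%, taking 3 counts as the limit, and the exact 95% interval used for the other shares ends at 0.136%. The rule had already removed places with a WT peak of that antibody, so this count is not independent of it. The mean share of regions met was 0.423% ± 0.338 (SD, n = 2) for zmddm1b and 0 for both zmddm1a libraries. A two-sided exact permutation test of the libraries, 2 against 2, gave p = 0.333. No smaller p is possible here and the rule bears on the zmddm1a counts, so nothing is read from this test. The zmddm1b share rested on replicate 1: without it 0.184% of the regions were met.

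**Figure D5:**
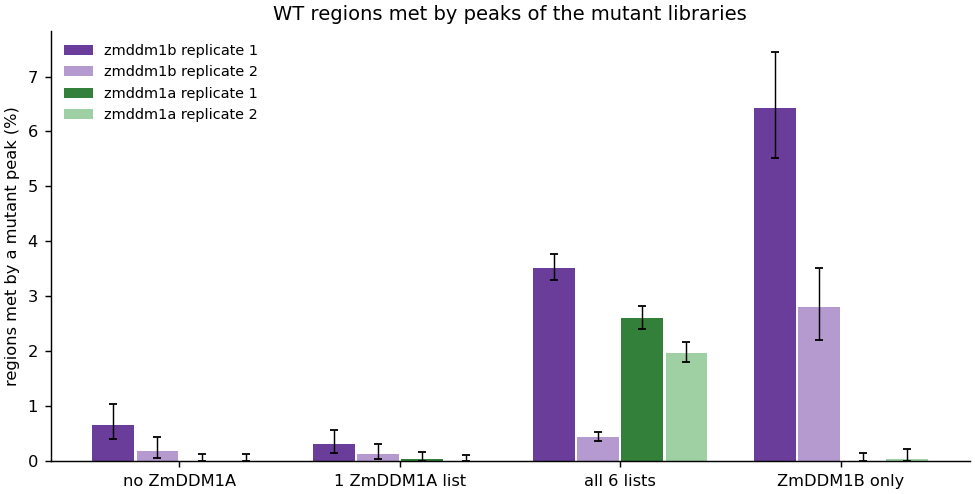
Percent of WT regions that shared at least 1 bp with a peak of each mutant library, for regions with ZmDDM1B and ZmAGO4 and no ZmDDM1A, with 1 ZmDDM1A list, with all 6 lists and with ZmDDM1B alone; error bars are exact 95% intervals over regions. The regions without ZmDDM1A were met in 0.662% and 0.184% by the zmddm1b libraries and in none by the zmddm1a libraries.

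The 21 regions met by a zmddm1b peak differed in form from the rest. Their median ZmDDM1B folds in WT were 5.35 and 4.76, against 3.66 and 3.68 in the other 2699, and their median ZmAGO4 folds were 5.74 and 6.60, against 9.35 and 9.48. Their median width was 624 bp against 1401 bp. Both zmddm1b libraries called 2 of them, 0.0735% of the 2720, where 0.164% of all merged regions were called by both. The first, chr2:163678233-163678833, had ZmDDM1B folds of 7.49 and 4.36 in WT and 4.68 and 4.90 in zmddm1b. The second, chr9:7017524-7017987, had 5.35 and 3.86 in WT and 4.03 and 5.01 in zmddm1b. At both the mutant folds overlapped those of WT. Folds of different libraries are each relative to their own background, and the depth of the mutant libraries was not matched to WT.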

How the data were processed

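ChIP-seq peak lists of 10 libraries in 5 groups of 2 were used. The other libraries of the 28 in the series (input, IgG, H3K9me2 and mRNA-seq) were not analysed here. Per the submitters' processing notes, MACS2 2.1.2, Bowtie2, Trim Galore and Picard were among the tools of the series, with no role stated, and the build named was B73 RefGen_v4. The peak calling settings were not given in the sources used here. Since B73 is another inbred than W22, sequence that B73 lacks cannot appear. Each list belongs to 1 library. The deposited fold enrichment is a ratio at the summit, and the p-values and q-values that the authors deposited are −log10 values, whose lower limit near 2 matches a q-value of 0.01. Positions are printed counted from 1. Genes and sequences at these positions were not analysed here, because no genome of this build was used.

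Peaks were merged in Python 3.11.15 with pandas 2.3.3, and intervals came from scipy 1.17.1. Chromosome lengths were taken from the last peak end seen on each chromosome. Total depth is not in the lists. The summit pileup was taken as the whole number k that satisfied fold = (k + 1) / (background + 1) and the Poisson p-value within 0.001, which held for 97.8% to 100% of WT summits. The rest are summits with very small p-values and were left out of pileup medians. Merging, distances and pileups were tested on simulated data.

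The regions, the classes compared and the rule that picks named regions were chosen with earlier results of these data known. Named are the region with the highest smallest fold on each chromosome, the 5 highest by ZmDDM1B and by ZmAGO4 (smaller replicate fold), the 3 farthest from and nearest to ZmDDM1A, the 3 widest, those in both lists of a mutant, and 3 on either side of the threshold. The groups by width, distance and balance of folds, and the comparison at matched ZmDDM1B fold, were added after the data were seen. Alternatives were stricter q-values, 1 ZmDDM1A list allowed, a distance from ZmDDM1A, each replicate left out, width limits, other ends and other overlap rules.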

Additional observations from a re-analysis of the deposited data

How the results depend on the processing

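Over 7 results without a test 81 alternatives were run, of which 40 were classed as leaving the value the same and 41 as moving it. A value with a spread or interval was classed as moved when it changed by more than that. The number of regions has neither, and counts from 2296 to 2869 were classed as the same as 2720. For the zmddm1b minus zmddm1a share, 15 alternatives gave 0.184 to 0.662 points, and its p, which cannot pass a threshold, says nothing about stability. None turned the direction of a value that exceeded its error. The main ZmAGO4 difference did not exceed its error, and its sign varied between alternatives. It was −0.062 ± 0.013 without ZmDDM1B replicate 2 and 0.49 ± 0.030 among regions of 500 to 1500 bp (SD, n = 2 libraries each). The causes of the moves were not tested. With −log10 q of at least 5 in all 6 lists, the share of ZmDDM1B regions that were chosen was 8.01%, the log2 differences from regions of all 6 lists were −0.50 for ZmDDM1B and 0.047 for ZmAGO4, and the summit distance was 272.5 bp. With that limit for ZmDDM1B and ZmAGO4 only, there were 1805 regions (5.34%), with log2 differences of −0.47 and −0.018. With 1 ZmDDM1A list allowed there were 5958 (15.7%), with a ZmDDM1B difference of −0.50 and a summit distance of 262 bp. With no ZmDDM1A peak within 1000 bp the share was 6.03% and the ZmAGO4 difference 0.011. Among regions of 500 to 1500 bp the ZmDDM1B and ZmAGO4 differences were −0.52 and 0.49. At a ZmDDM1B fold of 3 to 4, chosen after seeing the data, the ZmAGO4 difference was 0.082 and the outer share differed by −4.50 points. The share met by zmddm1b was 0.0735% for a peak in both lists and 0.331% with 50% of the region covered.

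Leaving out 1 library gave 2742 to 5090 regions, since the rule then asks for fewer lists: 4393 and 4280 without ZmDDM1A replicate 1 or 2, and 4291 and 5090 without ZmDDM1B replicate 1 or 2. The share of ZmDDM1B regions ran from 7.15% to 11.5%, the ZmDDM1B difference from −0.57 to −0.48, the ZmAGO4 difference from −0.062 to 0.0099, the outer difference from −8.01 to −6.29 points, the summit distance from 232 to 261 bp, and the share met by zmddm1b from 0.184% (without zmddm1b replicate 1) to 0.767%. Without ZmDDM1B replicate 2 that share was 0.413%. Leaving out 1 library, the zmddm1b minus zmddm1a share ran from 0.184 to 0.662 points. With the replicate block it was 0.423 points (exact sign-flip p = 0.5, n = 2 pairs, the smallest possible). Both zmddm1a shares were 0, so whether equal numbers pair these libraries could not be checked. The absence of ZmDDM1A is limited by the weakest listed summits. They held 23 reads at the background typical of the lists and 20 at that of regions with 1 ZmDDM1A list.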

Other observations

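The reverse combination, ZmDDM1A with ZmAGO4 and no ZmDDM1B peak, was found in 1423 regions. Their median ZmDDM1A folds were 3.62 and 3.55, against 4.55 and 4.47 in the regions of all 6 lists, and their median ZmAGO4 folds were 7.88 and 7.90. Their median width was 1182 bp, and 52.5% (49.9 to 55.1) lay in the outer 40% of the chromosomes, against 47.7% (45.8 to 49.6) of the regions with ZmDDM1B and ZmAGO4 and no ZmDDM1A. Their middle share was 14.5% (12.8 to 16.5) against 15.04% (13.7 to 16.4). The lists of the DDM1 proteins differ in length and the depth of their libraries is not known here, so the numbers of regions in these classes are not compared.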
